A study of Mus musculus with 3 samples.

Results

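Clusters of neighbouring Med12 peaks are stretches of the mouse genome in which at least 3 Med12 peaks lay close together in the distal forelimb. Med12 peaks were merged when the gap between them was at most 12 kb and 500 bp, and a merged interval was kept as a cluster when it held 3 or more peaks. Clusters were thus chosen by the positions of the Med12 peaks themselves. The rule gave 183 clusters among 9368 merged intervals. The clusters held 673 of the 10634 Med12 peaks, or 6.33%. Of the other intervals, 8409 held 1 peak and 776 held 2. For that reason the number, spacing, span and score of clustered Med12 peaks are given as descriptions. The positions of RNA polymerase II (RNAP2) peaks, of genes and of sequence motifs were not used by it.

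The binding of both proteins was determined by ChIP-seq, in which crosslinked chromatin is pulled down with an antibody and its DNA is sequenced, in distal forelimbs dissected from untreated wild-type mouse embryos at embryonic day E12.5. There was 1 library for each antibody and 1 input library, which was not analysed here. The labels of the samples give E12.5, whereas the text of the series gives E11.5, and the stage of the labels is used here. The strain and the number of embryos are not given in the sources used here. Distal forelimb is a mixture of cells, mostly mesenchyme with some ectoderm, vessels, nerve and muscle precursors, so that each peak is an average over them, and binding in fewer cells cannot be told apart from less binding in each cell. An RNAP2 peak lay within 1 kb of an annotated start for 16 of 17 marker genes of distal limb mesenchyme, Sall4 being the exception. The same held for 2 of 6 muscle markers, 2 of 8 endothelial and blood markers, 0 of 6 ectoderm markers and 3 of 7 neural markers, against a background of 41.8% of all coding genes. In longer lists of such genes RNAP2 lay at a start of 39 of 51 limb transcription factors, 6 of 12 muscle, 6 of 16 endothelial and blood, 1 of 12 ectoderm and 8 of 15 neural genes.

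Mediator is a large protein complex that carries signals from transcription factors bound at enhancers to RNAP2 at promoters. Med12 belongs to its kinase module, which joins the complex reversibly. Long stretches of DNA with many Mediator sites often lie near genes that define a cell type, and the posterior Hox genes of the HoxA and HoxD clusters, which pattern the digits, are served in the limb bud by enhancers spread over large landscapes beside the gene clusters, gene-poor at HoxD and holding several genes at HoxA.

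The sequences that follow come from the strongest Med12 peak under an RNAP2 peak, away from any start, in each of 5 clusters that the results turn on. They are 300 bp at the centre of the peak, from the mm9 genome, on the plus strand from 5′ to 3′, and all positions given are those of mm9. Capitals mark matches to the motifs described further on. The sequence of the largest cluster, on the centromeric side of the HoxD genes, is intergenic at chr2:74231364-74231663. That of the Gas1 cluster is intergenic at chr13:60121205-60121504. The Hoxa7 to Hoxa10 sequence at chr6:52188370-52188669 is intronic to Hoxa10, the Mecom sequence at chr3:30006832-30007131 is intronic to Mecom, and the Jazf1 sequence at chr6:52937827-52938126 is intronic to Jazf1.
Largest cluster: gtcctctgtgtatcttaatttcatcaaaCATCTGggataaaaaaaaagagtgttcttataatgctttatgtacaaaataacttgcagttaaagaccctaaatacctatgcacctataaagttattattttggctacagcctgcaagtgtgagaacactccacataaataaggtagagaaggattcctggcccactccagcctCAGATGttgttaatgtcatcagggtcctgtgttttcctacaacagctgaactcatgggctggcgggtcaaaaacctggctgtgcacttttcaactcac
Gas1 cluster: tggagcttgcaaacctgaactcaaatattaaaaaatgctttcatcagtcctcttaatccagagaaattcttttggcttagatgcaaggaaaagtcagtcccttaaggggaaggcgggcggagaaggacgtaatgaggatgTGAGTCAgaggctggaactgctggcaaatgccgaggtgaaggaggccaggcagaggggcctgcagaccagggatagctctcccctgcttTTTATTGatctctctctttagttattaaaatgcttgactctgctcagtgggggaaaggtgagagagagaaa
Hoxa7 to Hoxa10 cluster: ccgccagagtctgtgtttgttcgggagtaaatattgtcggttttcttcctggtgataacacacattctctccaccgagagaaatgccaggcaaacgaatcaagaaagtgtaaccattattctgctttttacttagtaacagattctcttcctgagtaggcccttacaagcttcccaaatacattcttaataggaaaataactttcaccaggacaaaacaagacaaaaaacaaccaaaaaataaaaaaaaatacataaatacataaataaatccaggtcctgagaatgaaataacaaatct
Mecom cluster: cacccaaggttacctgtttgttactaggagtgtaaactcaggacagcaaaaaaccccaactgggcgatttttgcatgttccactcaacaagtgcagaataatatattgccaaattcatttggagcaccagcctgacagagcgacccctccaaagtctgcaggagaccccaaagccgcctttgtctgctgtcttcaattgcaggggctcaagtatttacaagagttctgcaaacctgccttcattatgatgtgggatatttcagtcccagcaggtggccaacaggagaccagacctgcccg
Jazf1 cluster: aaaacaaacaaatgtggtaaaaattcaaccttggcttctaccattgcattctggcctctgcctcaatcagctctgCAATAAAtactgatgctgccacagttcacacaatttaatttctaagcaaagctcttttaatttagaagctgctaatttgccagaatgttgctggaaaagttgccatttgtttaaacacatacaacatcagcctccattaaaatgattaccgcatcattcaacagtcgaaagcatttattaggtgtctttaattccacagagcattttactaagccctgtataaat
Peak scores are the values of the peak caller, a p-value on the negative log10 scale multiplied by 10. For Med12 they were 304.63 at the first of these peaks, 443.12 at the second, 74.16 at the third, 530.68 at the fourth and 244.88 at the fifth. A CAGATG match occurred on each strand in the sequence of the largest cluster. The Gas1 sequence held TGAGTCA and TTTATTG, the latter being CAATAAA on the other strand, and the Jazf1 sequence held CAATAAA. No searched motif was found in the Hoxa7 to Hoxa10 and Mecom windows.

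Most clusters were small. There were 126 clusters of 3 Med12 peaks, 35 of 4, 12 of 5, 5 of 6 and 4 of 7, and a single one held 37. Spans ranged from 3748 to 181590 bp, with a median of 15445 bp, and the next longest after the largest was 48821 bp. Together the spans covered 3.15 Mb. The median gap between neighbouring peaks of a cluster was 4137.5 bp. Med12 peaks filled a median of 25% of a span, with a range of 12.1% to 96.4%. Near the limit of the rule, the widest gap inside a cluster was 12459 bp, and the narrowest gap that was not bridged, and that would have joined 3 or more peaks, was 12638 bp. A gap less than 1 kb under the limit was present in 21 clusters, of which 9 had 3 peaks, and 20 gaps up to 1 kb above it separated intervals that together held 3 or more. Clusters were most numerous on chromosome 6, with 19, and on chromosomes 2 and 3, with 17 each. Per 100 Mb, chromosome 18 had the most, 13.2, against 12.7 on chromosome 6, 10.7 on chromosome 3 and 9.35 on chromosome 2. The share of a chromosome's Med12 peaks that lay in clusters ran from 1.16% on chromosome 19 to 11.4% on chromosome 2, leaving aside chromosome Y with its 3 Med12 peaks and no cluster. On chromosome 2 the largest cluster held 37 of the 99 clustered peaks. Chromosomes 18 and 6 followed with 11.1% and 11.0%.

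**Figure D1:**
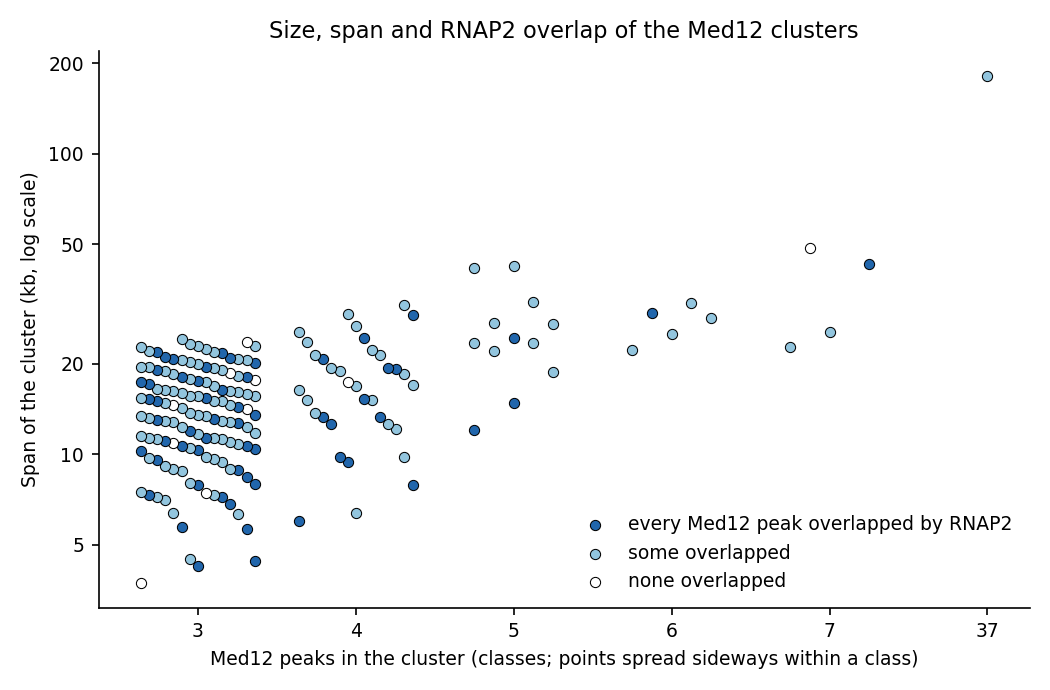
Each point is one of the 183 Med12 clusters, placed by its number of Med12 peaks (horizontal classes) and its span in kb (vertical log axis), and coloured by whether every, some or none of its Med12 peaks was overlapped by an RNAP2 peak. The cluster of 37 peaks stands alone at 181590 bp, and the 10 open points are the clusters with no RNAP2 overlap.

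Clustered Med12 peaks were more often covered by RNAP2 than the others. Overlap by at least 1 bp with an RNAP2 peak was found for 428 of 673 clustered peaks, or 63.6% (95% Wilson interval 59.9 to 67.1%), against a background of 42.7% of all Med12 peaks. Outside clusters the share was 41.3% (40.3 to 42.2%), and the intervals did not overlap. In intervals of 1 peak the share was 39.2% (38.2 to 40.3%), in intervals of 2 it was 52.3% (49.8 to 54.8%), in clusters of 3 it was 65.3% (60.4 to 70.0%) and in clusters of 4 it was 72.1% (64.2 to 78.9%). Among clusters of 5 or more the share was 51.6% (43.8 to 59.3%), and without the largest cluster it was 65.3% (56.3 to 73.2%). Each antibody had 1 library, so there were no replicates and no test between groups, and the intervals cover counting error only. They are also too narrow, because neighbours in a cluster can share an RNAP2 peak: 42 RNAP2 peaks covered 2 or more Med12 peaks of a cluster, and 5 clusters lay whole under 1 RNAP2 peak.

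The difference was present both at starts and away from them. Within 1 kb of any annotated start, coding or not, 93.7% of 142 clustered peaks (88.4 to 96.6%) were overlapped by RNAP2, against 84.1% (82.3 to 85.6%) outside clusters and a background of 84.7%. For peaks farther than 1 kb from every start, called distal here, the share was 55.6% of 531 (51.3 to 59.7%), against 31% (30.02 to 32%) outside clusters and a background of 32.5%. Scores moved with cluster membership. The median Med12 score was 69.4 in clusters and 56.2 outside, and a score of 100 or more was held by 32.8% of clustered peaks and 17.5% of the others. Distal peaks were therefore compared within classes of score. Peaks within 1 kb of a start were not split by score, so the part of score in their difference was not tested. The shares that follow are those of distal peaks. Between 40 and 50, RNAP2 overlapped 27.9% of clustered distal peaks (20.9 to 36.2%) and 11.2% of the others (10.2 to 12.4%). Between 50 and 100 the shares were 51.0% (44.8 to 57.2%) and 29.5% (28.0 to 31%). At 100 or more they were 85.4% (79.0 to 90.0%) and 83.5% (81.4 to 85.4%), which is within counting error. Med12 peaks were also wider in clusters, with a median of 1076 bp against 964 bp, and the part of width in the overlap was not tested.

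**Figure D2:**
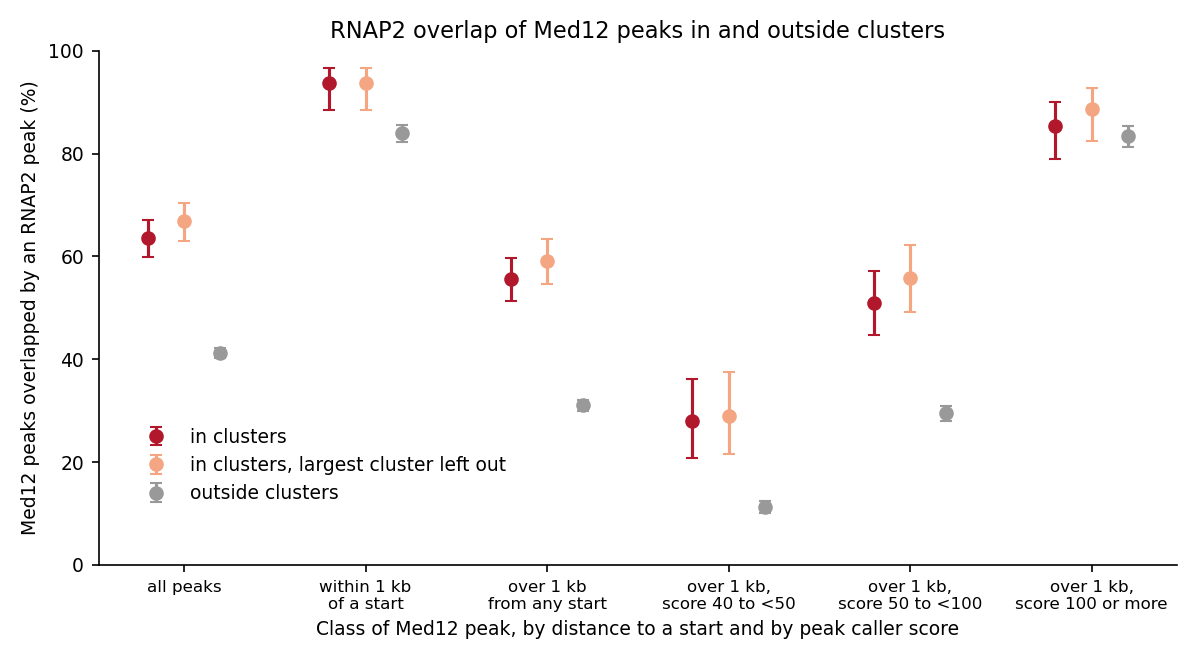
Points give the percentage of Med12 peaks overlapped by an RNAP2 peak in each class of distance to a start and of score, for peaks in clusters, in clusters with the largest left out, and outside clusters; bars are 95% Wilson intervals. Distal peaks with scores under 100 show the separation, 27.9% against 11.2% and 51.0% against 29.5%, while at scores of 100 or more the bars overlap.

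Seen by cluster, 173 of 183 (94.5%, interval 90.2 to 97%) had at least 1 Med12 peak under RNAP2. A cluster holds several Med12 peaks, and an overlap at any of them is enough for it to be counted. The share by cluster therefore tends to lie above the share by peak, 63.6% in clusters, and is given as a description only. It was not compared with groups of Med12 peaks outside clusters. Every peak was overlapped in 60 clusters, some but not all in 113, and none in 10. The spans held 425 RNAP2 peaks, of which 53 touched no Med12 peak. At overlapped distal peaks the median RNAP2 score was 199 in clusters and 139 outside them. RNAP2 scores reached 3100 at 311 peaks of the list and passed it at 18, so scores of 3100 are not ranked among themselves here.

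The largest cluster lay beside the HoxD genes. It spanned chr2:74130145-74311734, a run of 37 Med12 peaks over 181590 bp that overlapped no coding gene body. Its end facing HoxD was 194633 bp from the start of Hoxd13, a homeobox gene needed for digit formation, and the nearest coding start was that of Lnp, which encodes an endoplasmic reticulum protein, at 104546 bp. One noncoding transcript, 4930441J16Rik, started in the span. The density was 20.4 Med12 peaks per 100 kb. Stretches of the same length on either side held 6 Med12 peaks each. The Med12 scores ran from 40.84 to 304.63 with a median of 64.67, and 8 peaks were under 50 and 8 at 100 or more. Gaps ran from 34 to 11391 bp with a median of 2464 bp, and 11 were under 1000 bp.

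Few Med12 peaks of that cluster were under RNAP2. Only 3 of its 37 Med12 peaks were overlapped, or 8.11% (2.80 to 21.3%). Their Med12 scores were 49.98, 130.7 and 304.63, and the RNAP2 scores were 40.03, 198.5 and 111.57. The span held 5 RNAP2 peaks in all, against 6 in the flanking stretch on the Atp5g3 side and 10 in the one on the Lnp side. Of its 8 Med12 peaks with scores of 100 or more, 2 were overlapped, or 25% (7.15 to 59.1%), whereas in the other clusters 132 of 149 distal peaks of that class were, or 88.6% (82.5 to 92.8%). Between 50 and 100 it had 0 of 21, which allows a share of up to 15.5% by the Wilson interval. Of the 31-base words of its peaks 4.84% occurred more than once in the genome, against a median of 1.46% over all clusters, and the highest shares in single peaks were 38.3%, 32.2% and 23.7%. The part of repeats in the RNAP2 overlap was not tested. Because no replicate library exists, the spread of such a share between samples is unknown.

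Another 6 clusters lay within 1 Mb of the Hoxd13 start. On the far side of the largest one, at chr2:74022141-74049221, 4 of 5 Med12 peaks were under RNAP2. At chr2:74486839-74502122, a cluster of 4 peaks with scores of 68.08 to 99.54 contained the start of Evx2, a homeobox gene next to Hoxd13, and all 4 were overlapped, 3 of them by an RNAP2 peak with a score of 1019.12. On the other side of HoxD, where the nearest coding gene is Mtx2, which encodes a protein of mitochondrial import, 3 clusters followed each other. The first, chr2:74695262-74718079, had 7 peaks with scores of 43.66 to 104.24, and only the highest was under RNAP2. The second, chr2:74761055-74809875, also had 7 peaks, with scores of 40.58 to 182.19, and its span held no RNAP2 peak. In the third, chr2:74849735-74868263, 2 of 3 peaks were overlapped, and one of them had a Med12 score of 307.9. Those 3 clusters and an interval of 2 peaks between them made up the densest stretch outside the largest cluster, with 19 Med12 peaks in a window of the same length. At chr2:75436356-75451130, nearest to Hnrnpa3, 2 of 3 peaks were overlapped.

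In the 7 clusters around HoxD together, 16 of 66 Med12 peaks were under RNAP2, or 24.2% (15.5 to 35.8%), against 412 of 607, or 67.9% (64.1 to 71.5%), in all other clusters. For distal peaks the shares were 23.1% (14.5 to 34.6%) and 60.1% (55.6 to 64.4%). The largest cluster gave 37 of the 66 peaks, with 3 overlapped, and so weighs most in the pooled share. The other clusters ranged from 0 of 7 near Mtx2 to 4 of 4 at Evx2. The pooled share is therefore not a trait of each cluster around HoxD.

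**Figure D3:**
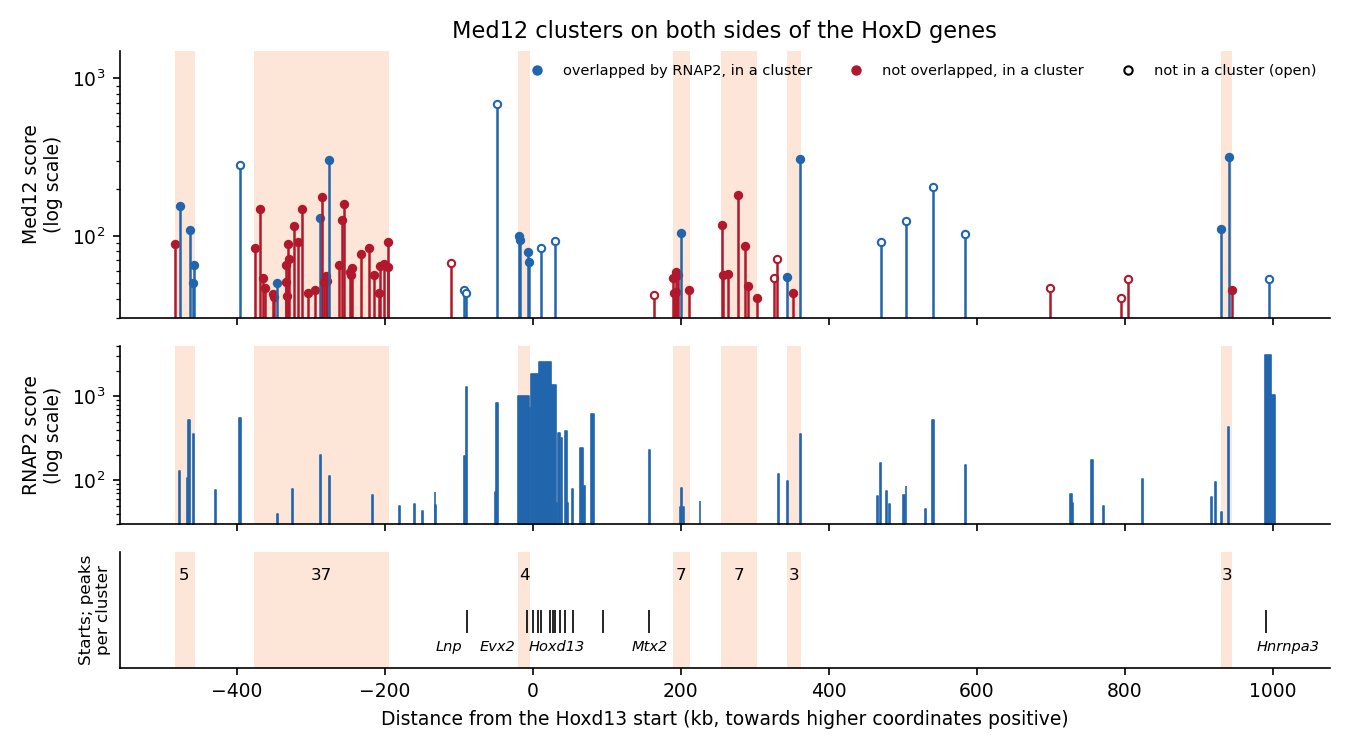
Med12 peak scores (top, log axis), RNAP2 peaks as bars of their width and score (middle, log axis) and 1 start per coding gene (bottom, with the number of Med12 peaks above each cluster), by distance in kb from the Hoxd13 start; shading marks clusters, filled points are clustered Med12 peaks, and blue and red mark peaks with and without RNAP2 overlap. The cluster of 37 peaks is almost all red, with 3 overlapped peaks, and the cluster at Evx2 is all blue.

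At HoxA, 5 clusters of 3 to 6 peaks lay within 1 Mb of the Hoxa13 start. RNAP2 overlapped 16 of their 20 Med12 peaks, against 428 of 673 (63.6%) over all clusters. These are few peaks, and 4 of them shared 1 RNAP2 peak, so the count is not read as a difference. The cluster at chr6:52166155-52195662 lay within the gene cluster itself and contained starts of Hoxa7, Hoxa9 and Hoxa10. Its 6 Med12 peaks had scores of 85.57, 214.72, 599.53, 181.29, 74.16 and 662.17, and all were overlapped. A single RNAP2 peak with a score of 1168.78 covered 4 of them, and the RNAP2 score over the strongest was 3100. The summed Med12 score of 1817 was second to the 3077 of the largest cluster. Starts of the microRNA gene Mir196b and of Hoxa11as, an antisense RNA, also fell in this span. The starts of Hoxa11 and Hoxa13 lay outside it, that of Hoxa13 at 15212 bp. At the other end of the HoxA genes, chr6:52114313-52133446 held starts of Hoxa2 and Hoxa3, and 2 of its 3 peaks were overlapped.

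On the side of Hoxa13, 3 clusters lay beyond the Hox genes. The nearest, chr6:52238137-52261548, ended 1944 bp before the start of Evx1, and 2 of its 5 peaks, with Med12 scores of 74.24 and 64.31, were under RNAP2. The next, chr6:52616861-52637802, lay between the starts of Hibadh and Tax1bp1, and all 3 of its peaks, scored 182.25, 179.01 and 86.89, were overlapped. The last, chr6:52917498-52938658, was inside Jazf1, a zinc finger gene, 706624 bp from Hoxa13, and all 3 peaks, scored 142.23, 117.22 and 244.88, were overlapped. Of 12 candidate HoxA enhancers that were cloned for reporter assays, 3 overlapped a cluster. They were e1, in the cluster beside Evx1, and e16 and e18, both in the Jazf1 cluster. These candidates were picked with the same RNAP2 and Med12 data together with published p300 and H3K27Ac data. The overlap is therefore not independent of the peaks used here, and the reporter activity of the candidates is not considered here.

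**Figure D4:**
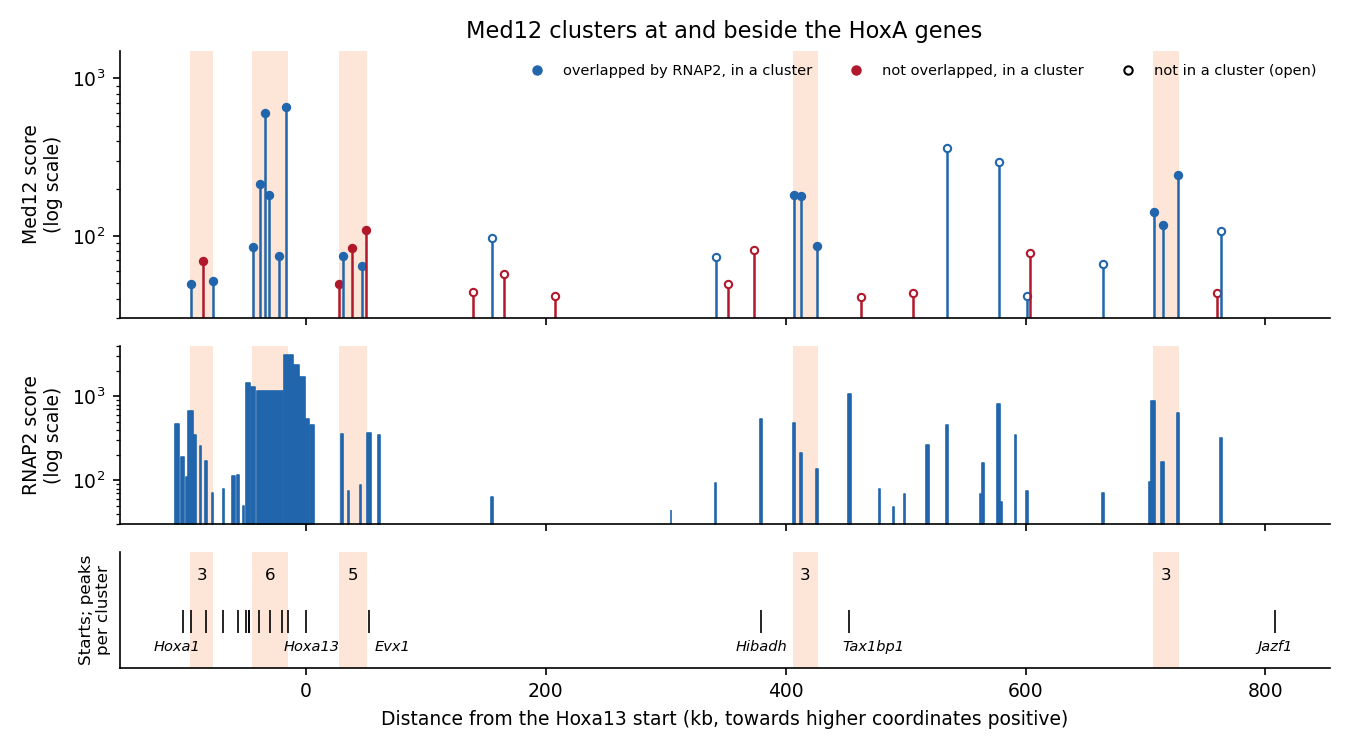
The same tracks as in the HoxD map, by distance in kb from the Hoxa13 start. The cluster of 6 peaks sits under broad RNAP2 peaks over the Hox genes, and the clusters beyond Evx1 at 405987 and 706624 bp have every peak overlapped.

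Several other large clusters held no coding start. The Gas1 cluster at chr13:60096528-60121995 had 7 Med12 peaks, 156633 bp from the start of Gas1, which encodes a hedgehog co-receptor. Its scores were 45.4, 171.34, 49.21, 87.61, 97.11, 75.02 and 443.12, and the 2 peaks under 50 were those without RNAP2. Inside Mecom, a zinc finger transcription factor gene, 5 of 6 peaks were overlapped, with a Med12 maximum of 530.68 under an RNAP2 peak of 2407.54. A cluster 99578 bp from Creb5, a bZIP transcription factor gene, had 5 of 6 peaks overlapped, and one inside Zfp521 on chromosome 18 had 4 of 6. Inside Exoc6b, an exocyst subunit gene, 2 of 6 were overlapped. At chr6:98140737-98172795, 119953 bp from the nearest coding start, that of Gm765, 3 of 5 peaks were overlapped, with Med12 scores of 110.68, 65.83 and 149.45, while the other peaks scored 49.98 and 42.65. The cluster near Hdac9, a histone deacetylase gene, spanned 41867 bp, and its 2 peaks under RNAP2, scored 345.97 and 379.64, were those above 100, while the other 3 lay between 40.31 and 52.12. One Med12 peak of 1254.1 gave a cluster of 4 peaks nearest to Olfr267, at 107335 bp, a summed score of 1563, and it was under an RNAP2 peak of 1716.43.

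No RNAP2 overlap was found in 10 clusters. Besides the one near Mtx2 with 7 peaks, the largest was a cluster of 4 inside 2010111I01Rik with starts of the microRNA genes Mir23b and Mir27b, where the Med12 scores were 192.62, 51.93, 45.72 and 62.68. The other 8 had 3 peaks each and summed scores of 153 to 238. They were nearest to 1700001F09Rik, Gm8126, Mpped2, Agpat9, Gm10076, Iqcb1, Slc9a9 and Slc7a15, of which the last 5 were named after their values were seen. In 2 of them, at 1700001F09Rik and Gm8126, over 50% of the 31-base words of the Med12 peaks occurred more than once in the genome.

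Most clusters held no coding start. In the GENCODE vM1 annotation a protein-coding transcript started within the span of 59 clusters (32.2%, interval 25.9 to 39.3%), and 15 of these held starts of 2 or more genes. Of the 124 without one, 53 lay whole inside 1 coding gene, and their median distance to the nearest coding start was 57832 bp. A distance above 100 kb was found for 46 clusters, and above 500 kb for 3. No coding gene body was touched by 66 clusters. Every Med12 peak was distal in 111 clusters and within 1 kb of a start in 14. Distal Med12 peaks in clusters lay at a median of 59845 bp from a coding start, against 71025 bp for those outside, and the shares beyond 100 kb were 39.9% (35.8 to 44.1%) and 41.1% (40.1 to 42.2%). Within 1 kb of a coding start lay 13.8% of clustered peaks (11.4 to 16.6%) and 17.0% of the others (16.3 to 17.7%), whereas for any annotated start the shares were 21.1% (18.2 to 24.3%) and 19.3% (18.6 to 20.1%).

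RNAP2 overlap was higher in clusters that held a coding start. In those 84.6% of Med12 peaks were overlapped (79.1 to 88.9%), and in the others 54.2% (49.6 to 58.7%). The others include the largest cluster, with 3 of 37 overlapped. Among all Med12 peaks 84.7% were overlapped within 1 kb of a start and 32.5% farther away. The contrast between clusters was not split by that distance, so its part was not tested. Every peak was overlapped in 35 of 59 and in 25 of 124, respectively. A gene is called linked to a cluster here when one of its starts lies in the span or, with no coding start in the span, when its start is the nearest, which is a statement on position only. By this definition 204 of 22367 coding genes (0.912%) were linked, and 159 of them, or 77.9% (71.8 to 83.1%), had an RNAP2 peak within 1 kb of a start, against a background of 41.8% of coding genes. For the 91 genes with a start inside a cluster the number was 87. Over all Med12 peaks within 1 kb of a start, RNAP2 overlapped 84.7%. The 41.8% takes in genes without Med12 at a start, so the part of clustering in the difference was not tested. Where the span held no coding start, the nearest gene had RNAP2 at a start for 66.9% of 124 clusters (58.3 to 74.6%), against 53.8% (52.7 to 54.8%) for Med12 peaks outside clusters. The units are unlike, whole spans against single peaks without a coding start in the peak. A gene nearest to several of them was counted each time, so the part of clustering was not tested here either. More than 1 cluster was linked to 10 genes, namely Mtx2 with 3 and BC107364, Cyr61, Lrba, Mecom, Nfatc1, Nfia, Psmd7, Tcf4 and Zfp608 with 2 each.

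Among transcription factor genes of the limb, 7 of 51 were linked to a cluster, against 0.912% of all coding genes. Hand2, a bHLH factor that acts upstream of Shh, started inside a cluster of 3 peaks with Med12 scores of 272.24, 65.33 and 147.39, all under RNAP2. Twist1, another bHLH factor of mesenchyme, had 3 of 3 peaks overlapped, with scores of 72.12 to 88.26. Tbx15, a T-box factor of the limb skeleton, held a cluster of 42390 bp with 3 of 5 peaks overlapped, and Prrx2, a homeobox gene of mesenchyme, had 3 of 4 with a maximum of 340.66. Evx1 and Evx2 were the Hox neighbours described above. Mycn, a proliferation factor, was the nearest gene to 3 peaks at 101623 bp, all under RNAP2. Of the 9 posterior Hox genes, 2 were linked, Hoxa9 and Hoxa10, while RNAP2 lay at a start of all 9.

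Feedback targets of the limb signalling pathways were linked in 5 of 40 cases, against 0.912% of all coding genes. Each had an annotated start inside the span, and every Med12 peak was under RNAP2. They were Ptch1, the hedgehog receptor, with 3 peaks; Id2 and Id3, inhibitors of bHLH factors that BMP signals induce, with 4 and 3; Smad7, an inhibitory Smad, with 4; and Hes1, a repressor in Notch signalling, with 5. At Ptch1 the start in the span was an internal one, and the 5′ end of the gene lay outside the span. At Id3 the Med12 scores were 128.24, 500.01 and 82.47, and at Hes1 they ran from 50.58 to 319.3. At both Id genes 1 RNAP2 peak with a score of 3100 spanned the whole set. Over all clusters with a coding start in the span, every Med12 peak was overlapped in 35 of 59, so full overlap was not particular to these genes. The chondrogenic list had 5 of 27 linked, or 18.5%. With the nearest start limited to 100 kb, or with Med12 scores of at least 50, 2 of 27 were linked (7.41%), and by overlap with the gene body 3 of 27 (11.1%). Runx3 contained a cluster of 3 peaks around a start, all under RNAP2. Sox6, a cofactor of Sox9 in cartilage, contained 4 peaks at 178631 bp from the nearest of its annotated starts, of which 3 were overlapped. Trps1, a repressor of cartilage maturation, contained 4 peaks, all overlapped. Foxc1 was the nearest gene, at 163720 bp, to a cluster inside Gmds with 2 of 4 peaks overlapped, and Snai1, at 21059 bp, to one with 3 of 3.

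Ligands and antagonists of signalling pathways had 0 of 45 genes linked. Within 1 kb of a start, 21 of the 45 had an RNAP2 peak and 3 a Med12 peak. Shh, Fgf8, Bmp4 and Grem1, all in this list, had no RNAP2 peak there. Of the 20 housekeeping genes none was linked, while 19 had RNAP2 and 7 had Med12 at a start, against a background of 8.97% of coding genes with Med12 there. No gene of the muscle (12), endothelial and blood (16), ectoderm (12) or neural (15) lists was linked. A Med12 peak at a start was found for 0, 1, 0 and 1 of them, respectively. With lists of this size, and 0.912% of all genes linked, a count of 0 is not a difference. The lists were chosen with earlier results of these data known, so their counts are descriptions.

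**Figure D5:**
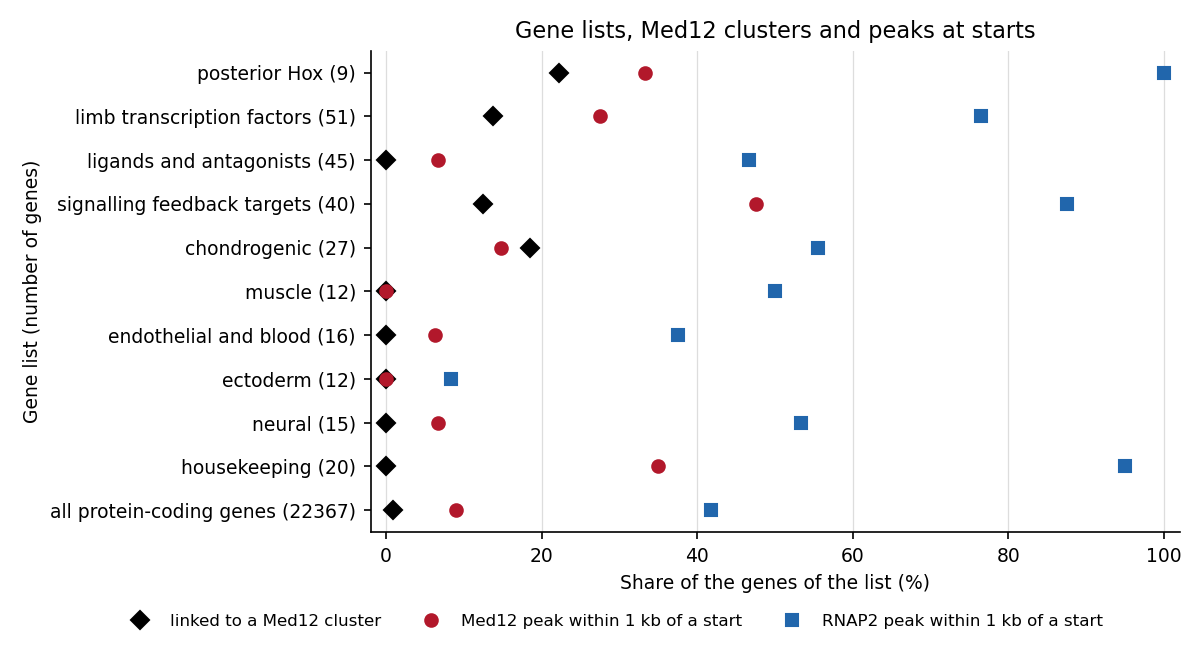
For each gene list (number of genes in brackets) the horizontal axis gives the percentage of genes linked to a Med12 cluster (diamonds), with a Med12 peak within 1 kb of a start (circles) and with an RNAP2 peak there (squares). Linked genes reach 22.2% of the posterior Hox list and 18.5% of the chondrogenic list (7.41% with the nearest start limited to 100 kb), against 0.912% of all coding genes; where a circle covers a diamond, both are 0.

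Histone and small nuclear RNA genes formed a further group, chosen after its values were seen. Replication-dependent histone genes, whose messages lack a poly(A) tail, had starts in 5 clusters, 4 on chromosome 13 and 1 on chromosome 3. These held starts of 22 histone genes, and all 17 of their Med12 peaks were under RNAP2. Each of these peaks lay within 1 kb of a start, where RNAP2 overlapped 93.7% of clustered Med12 peaks and 84.7% of all Med12 peaks, so that the count is close to that background. The cluster at Hist1h1c, chr13:23830242-23854640, held 8 of these genes and 5 Med12 peaks with scores of 46.96 to 114.91. Genes of the spliceosomal RNAs U1 and U2 started in 5 clusters, where 17 of 19 Med12 peaks were overlapped and 17 lay within 1 kb of a start, again close to the background for peaks there. One of these, at Gm16382 on chromosome 12, had 7 peaks with Med12 scores of 172.39 to 288.21, each under an RNAP2 peak scored 3100, and 88.1% of its 31-base words were repeated in the genome. The U2 cluster near Arl4d on chromosome 11 had 3 peaks scored 510.2, 420.7 and 539.78, with 55.1% repeated. The repeated share passed 50% in 10 clusters. At single peaks it passed 50% for 4.61% of clustered peaks and 2.11% of the others. Sequence of that length from such copies cannot be assigned to 1 place, so the number of peaks there is uncertain. Leaving those 10 clusters out gave an RNAP2 overlap of 63.4% of 637 peaks (59.6 to 67.1%).

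MicroRNA host transcripts were also present, again chosen after their values were seen. Dnm3os, a noncoding RNA that carries Mir199a-2 and Mir214 and is made in mesenchyme, started in a cluster of 4 peaks inside Dnm3. The Med12 score there reached 1086 under an RNAP2 peak of 3100, and the other Med12 peaks scored 54.98, 93.01 and 55.19. Mir26b, in Ctdsp1, lay in a cluster of 3 peaks with scores of 193.4, 147.47 and 81.49, of which the first was not under RNAP2.

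At the centre of distal clustered peaks, no searched motif differed in frequency from other distal Med12 peaks beyond counting error. The 8 motifs of the list were searched on both strands in 300 bp windows: CAATAAA (posterior Hox proteins), TAATTA (other homeodomain proteins), CAGATG (bHLH proteins), TGANTCA (AP-1), CCACCCA (Gli proteins), CTTTGAT (TCF/LEF), TGTGGTT (Runx) and GGAATG (Tead). CAATAAA was found in 15.3% of the 531 clustered windows (12.4 to 18.6%) and 12.7% of the 8036 others (12 to 13.4%). CAGATG was the most frequent, in 22.2% (18.9 to 26.0%) and 23.9% (23.0 to 24.8%). GGAATG was found in 18.3% and 18.1%, and TAATTA in 12.8% and 13.7%. For the remaining 4 the clustered shares lay between 5.65% and 7.72% and the others between 4.64% and 8.97%. In each case the intervals overlapped. Median G+C content was 41.3% in clusters and 41.0% outside, and windows without a CpG were 11.1% and 16.7%. A match is a string of letters and not a bound site.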

How the data were processed

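RNAP2 and Med12 were measured by ChIP-seq in distal forelimb at E12.5, with 1 library each and without replicates. Reads lacking their first base were aligned by the authors to mm9 (Bowtie), duplicates were discarded, and MACS 1.4.1 called the peaks. Each deposited score is the MACS p-value on the negative log10 scale multiplied by 10. Scores start at 40, a p-value of 0.0001, although the stated threshold, 1e-05, corresponds to 50. Whether the input served as the control is not given in the sources used here. Without read counts the depth behind a peak is unknown.

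Gaps of up to 12.5 kb between Med12 peaks were merged with Python 3.11.15, and bedtools 2.31.1 gave the same 183 clusters. The merging was checked on simulated intervals. Overlaps needed 1 bp, starts came from GENCODE vM1, and repeated 31-base words were counted in mm9. Shares carry 95% Wilson intervals (scipy 1.17.1), and no test was possible with 1 library per antibody.

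The clusters and gene lists were chosen with earlier results of these data known. Clusters are named if among the 10 with most peaks, the 5 longest, the 5 with the highest summed score, the 5 with most peaks without RNAP2, the 5 with most peaks without a coding start within 100 kb, those within 1 Mb of Hoxa13 or Hoxd13, or linked to a listed gene. Others are said to be chosen after their values were seen. Alternatives changed the gap, the number of peaks, score minimums, the overlap, the promoter interval, the link to genes and the motif window.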

Additional observations from a re-analysis of the deposited data

How the results depend on the processing

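No paired analysis was possible because with 1 library per antibody no samples could be paired. The number of clusters depended on the rule: it was 75 with gaps of at most 5000 bp, 360 with 25000 bp, 57 with at least 4 peaks, 22 with at least 5, 107 with Med12 scores of at least 50 and 14 with at least 100, against 183. With Med12 scores of at least 50 the largest cluster did not stay whole. The share of clustered Med12 peaks under RNAP2 (63.6%) was 52.9% with RNAP2 scores of at least 100, against 30.9% outside clusters, and 55.6% for distal peaks. With Med12 scores of at least 50 and 100 it was 70.2% and 89.6%, against 54.1% and 87.0% outside clusters rebuilt in the same way. Without the clusters within 1 Mb of Hoxd13, an alternative chosen after seeing the data, it was 67.9%. With an overlap of 50% of the shorter peak, gaps of up to 500 bp to an RNAP2 peak, or merging at 5000 or 25000 bp it lay between 60.2% and 66.0%, and above the share outside clusters, 40.2% to 42.2%, each time. Clusters with at least 1 peak under RNAP2 (94.5%) fell to 83.6% with RNAP2 scores of at least 100 and made up 100% of the 14 clusters with Med12 scores of at least 100. Linked genes (0.912%) were 0.680% by overlap of the gene body, 0.720% within 100 kb and 0.537% with Med12 scores of at least 50. In the chondrogenic list 7.41% were linked under each of the last 2, against 18.5%. With windows of 500 bp the motif shares in and outside clusters were 21.3% and 19.9% for CAATAAA, 18.8% and 21.8% for TAATTA, 35.2% and 35.6% for CAGATG, 12.8% and 14.5% for TGANTCA, 9.04% and 7.78% for CCACCCA, 8.85% and 9.98% for CTTTGAT, 12.8% and 12.8% for TGTGGTT, and 28.8% and 27.6% for GGAATG, with overlapping intervals in each case. Within 5 kb of a coding start lay 22.9% of clustered peaks, against 13.8% within 1 kb. The other 45 of 72 recomputed values, among them each value of the share of clusters with a coding start, stayed within the interval, or within 1.5 times the count, of the reported value. The cause of these shifts was not tested. The lists hold no read counts, so the part of depth was not tested.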
